A study of Mus musculus with 18 samples.

Results

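Among the surface receptors that dendritic cells use to sample their surroundings, 10 genes for C-type lectins and Fc receptors were followed through the maturation of thymic XCR1+ dendritic cells: *Ly75*, *Cd207*, *Clec7a*, *Clec12a*, *Clec10a*, *Fcgr2b*, *Fcgr1*, *Fcgr3*, *Fcgr4* and *Fcer1g*. They were chosen by name from this class with earlier results of these data known, so counts among them are descriptions. Genes needed a probeset that the array annotation assigns to exactly 1 symbol, and these are 10 of the 19938 genes measured. They do not cover the class, and other C-type lectins and Fc receptors measured the same way are given further below. Each had 1 such probeset and none lay on a probeset shared with another symbol. Their probesets, in the order above, are 10482929, 10545742, 10548375, 10542164, 10377782, 10360028, 10500335, 10360040, 10351509 and 10360070.

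The data are 18 Affymetrix mouse whole-transcript arrays of cells sorted from the thymus of untreated B6 mice, in 6 groups of 3. Immature cells were CCR7- and CD117+, and homeostatically matured cells were CCR7+ and CD117-. All cells were sorted as CD11c+ MHCII+ XCR1+ CD8a+ and without CD11b and CD172a. Each stage was taken from 3 backgrounds. CTRL mice were wild-type and kept specific-pathogen-free (SPF). Ifnar1-KO mice lacked the gene for the type I interferon receptor chain IFNAR1 and were also kept SPF. GF mice were wild-type and germ-free. Between 0.7 and 7.3 ng of RNA per sample was amplified before hybridisation. Nothing in the labels ties an array to a mouse, a pool or an age, and the p-values below therefore rest on the spread between these arrays alone, which may be technical.

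C-type lectins bind sugars and other ligands through a shared fold, and many carry the ligand into the cell for antigen presentation. Some also signal: receptors with an activating motif (ITAM or a single-copy form of it) recruit the kinase SYK, which acts through CARD9, BCL10 and MALT1, while receptors with an inhibitory motif (ITIM) recruit phosphatases. Fc receptors bind antibodies and follow the same division. In the mouse FcγRI, FcγRIII and FcγRIV depend on the ITAM-bearing γ chain encoded by *Fcer1g*, whereas FcγRIIB carries an ITIM of its own. XCR1+ dendritic cells, which take up dying cells and cross-present their antigens, are known for the endocytic lectins CD205 and langerin.

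Stage labels and the RNA of the stage marker *Ccr7* went together on every array. *Ccr7* lay between 7.25 and 9.09 on the log2 intensity scale on the CCR7- arrays and between 11.79 and 12.09 on the CCR7+ arrays. All cells were sorted as XCR1+, yet *Xcr1* RNA was lower on the CCR7+ arrays. It lay between 11.28 and 11.56 in CCR7- and between 4.89 and 8.36 in CCR7+ cells. *Clec9a*, another defining gene of this cell type, lay between 10.43 and 11.02 in CCR7- and between 7.70 and 8.73 in CCR7+ cells. The mean of 14 thymocyte markers was 4.43 to 5.17 on CCR7- and 5.13 to 6.18 on CCR7+ arrays, apart from Ifnar1-KO CCR7+ replicate 2, where it was 7.75. As a picture of genes that these cells are not known to use, 1015 olfactory receptor genes had a median level of 3.44 and a central 90% range of 2.95 to 4.43. That range, called the olfactory range below, describes the array floor only roughly, because the level of a probeset depends on its probes, and the highest olfactory gene averaged 6.49. For the same reason levels are compared between arrays and not between genes.

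Maturation, taken as CCR7+ minus CCR7- cells, divided the 10 genes. In all 3 backgrounds *Ly75* rose and *Cd207*, *Clec12a* and *Fcgr2b* fell. *Clec7a* rose in Ifnar1-KO and GF cells, where its call was fragile, and did not pass the test in CTRL. *Fcer1g* stayed above the olfactory range without a called change, and *Clec10a*, *Fcgr1*, *Fcgr3* and *Fcgr4* stayed within the olfactory range in every group mean. A gene was called when its Benjamini-Hochberg adjusted p from limma, over all 19938 genes of the comparison, was under 0.05. Called members were 1 higher and 4 lower in CTRL, where 12.6% of all genes were called higher and 13.6% lower. They were 2 higher and 3 lower in Ifnar1-KO, beside 9.42% and 10.8% of all genes, and 2 higher and 4 lower in GF, beside 9.53% and 11.8%. Both directions together are 50%, 50% and 60% of the 10 members, beside 26.2%, 20.2% and 21.3% of all genes. The 4 members called in all 3 backgrounds in 1 direction stand beside 15.4% of all genes. The median change of the members was -0.10, -0.17 and -0.12 in log2 units, beside 0.07, 0.00 and 0.03 for all genes. A change in these sorted populations can reflect fewer cells of a type or less RNA per cell, which cannot be told apart here.

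**Figure D1:**
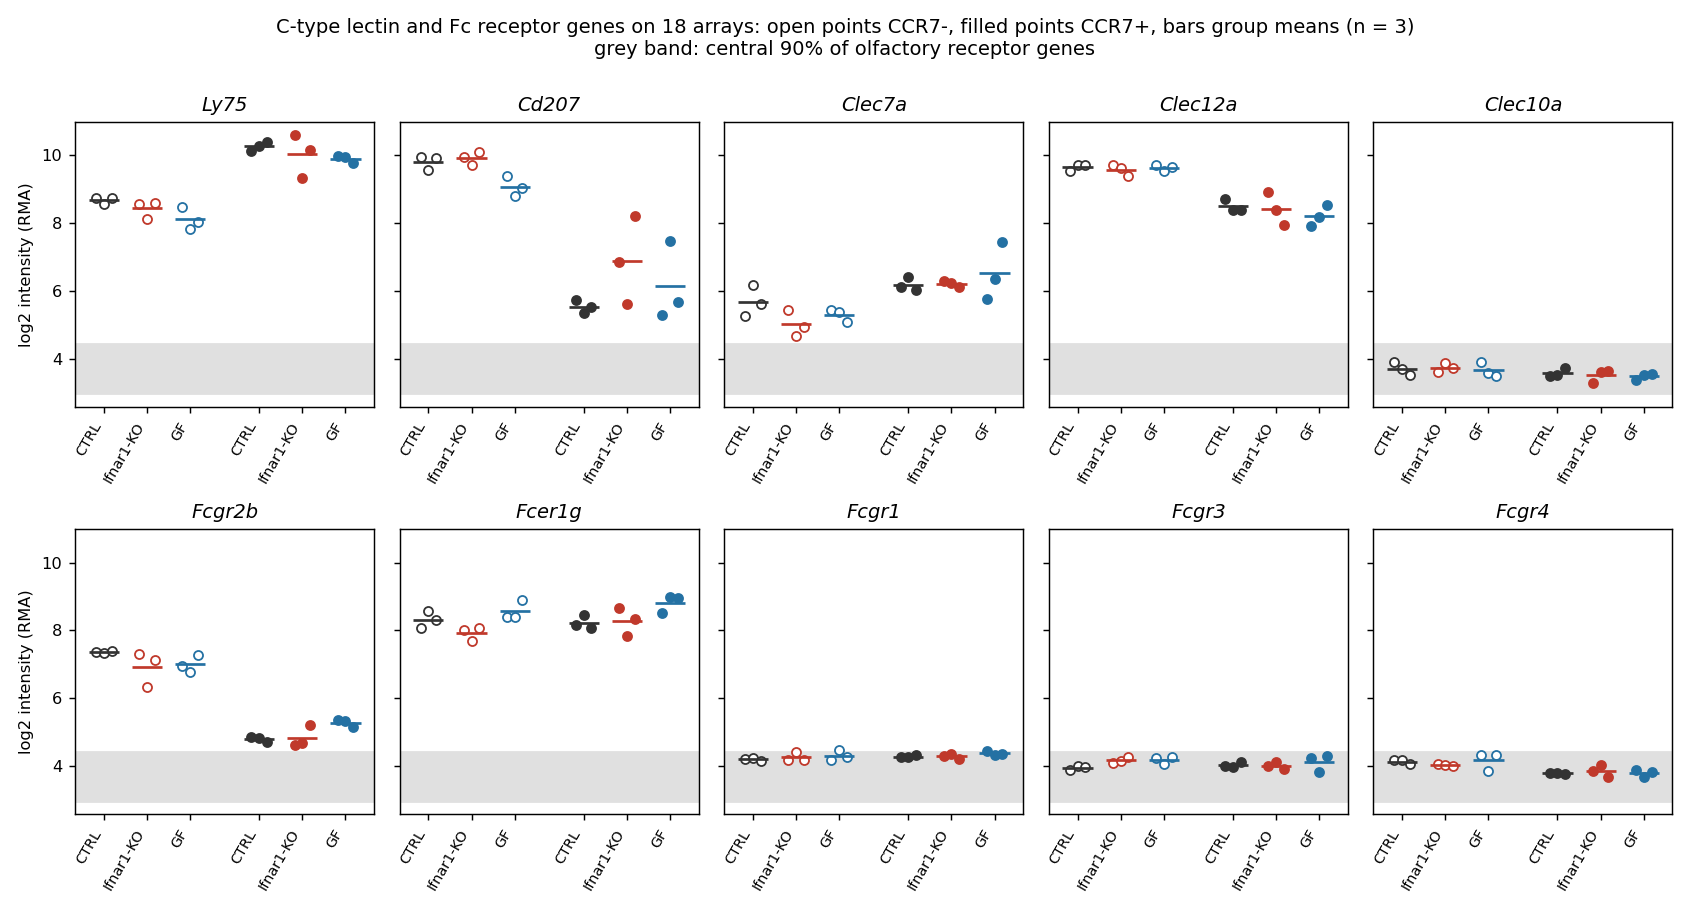
Log2 intensity of the 10 genes on each of the 18 arrays, by group (CTRL, Ifnar1-KO, GF); open points are CCR7- and filled points CCR7+ arrays, bars are means of 3 arrays, and the grey band is the olfactory range of 2.95 to 4.43. Ly75 is higher and Cd207, Clec12a and Fcgr2b are lower on all 9 CCR7+ arrays than on all 9 CCR7- arrays, while Clec10a, Fcgr1, Fcgr3 and Fcgr4 have group means inside the band throughout.

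The 4 genes that changed in all 3 backgrounds are shown first with the 250 bases before their RefSeq transcription start (GRCm38.p6), because their levels moved with stage in every background. *Ly75* is at chr2:60383274-60383523 on the minus strand, *Cd207* at chr6:83677858-83678107 on the minus strand, *Clec12a* at chr6:129349994-129350243 on the plus strand and *Fcgr2b* at chr1:170976072-170976321 on the minus strand. The windows of *Ly75*, *Cd207* and *Fcgr2b* border the gene span that RefSeq lists, whereas that of *Clec12a* lies inside its span, which begins upstream of the window at 129349783, so the start used here is not the listed start of that gene. Capitals mark matches, on either strand, to GAGGAA (the Ets-family core bound by PU.1) or TGANTCA (the AP-1 core, bound by BATF and JUN proteins, searched after the sequences had been seen); matches of different motifs were allowed to overlap.
Ly75: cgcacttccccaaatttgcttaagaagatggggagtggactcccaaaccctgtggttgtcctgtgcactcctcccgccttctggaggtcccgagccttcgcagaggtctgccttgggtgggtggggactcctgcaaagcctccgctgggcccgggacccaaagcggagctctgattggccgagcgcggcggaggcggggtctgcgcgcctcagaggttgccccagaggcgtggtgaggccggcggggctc
Cd207: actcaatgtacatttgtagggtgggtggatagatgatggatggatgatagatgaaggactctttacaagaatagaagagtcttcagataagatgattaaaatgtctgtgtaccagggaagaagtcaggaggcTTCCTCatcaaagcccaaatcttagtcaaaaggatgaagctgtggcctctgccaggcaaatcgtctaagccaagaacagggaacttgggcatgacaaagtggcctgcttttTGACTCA
Clec12a: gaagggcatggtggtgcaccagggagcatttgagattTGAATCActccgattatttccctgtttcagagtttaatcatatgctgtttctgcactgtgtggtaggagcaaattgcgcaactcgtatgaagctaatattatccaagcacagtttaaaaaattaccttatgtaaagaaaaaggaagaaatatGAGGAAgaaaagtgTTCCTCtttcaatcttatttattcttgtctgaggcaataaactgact
Fcgr2b: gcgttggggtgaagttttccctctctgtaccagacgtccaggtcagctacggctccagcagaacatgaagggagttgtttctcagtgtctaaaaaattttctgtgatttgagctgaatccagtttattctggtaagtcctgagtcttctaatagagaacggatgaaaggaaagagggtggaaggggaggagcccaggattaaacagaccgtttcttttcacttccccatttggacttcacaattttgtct

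GAGGAA occurred in 2 of these 4 windows, in *Cd207* at 118 to 113 bases before the start and in *Clec12a* at 61 to 56 and at 47 to 42 bases, beside 23.1% of the 27025 promoters of the same length. TGANTCA occurred in the same windows, in *Cd207* at 7 to 1 bases and in *Clec12a* at 213 to 207 bases before the start, beside 6.87% of all promoters. The *Ly75* and *Fcgr2b* windows held neither motif. A match describes letters in the window and shows nothing about binding.

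*Ly75* encodes CD205 (DEC-205), an endocytic lectin of the mannose receptor family that delivers antigen to late endosomes. In CTRL cells its log2 level was 8.74, 8.56 and 8.75 on the CCR7- arrays and 10.14, 10.29 and 10.38 on the CCR7+ arrays. Ifnar1-KO cells gave 8.56, 8.13 and 8.61 against 10.60, 9.34 and 10.15. GF cells gave 8.47, 7.83 and 8.03 against 9.98, 9.94 and 9.77. Every CCR7+ array lay above every CCR7- array, as it did for 7% of all genes, and the lowest CCR7+ value belonged to Ifnar1-KO replicate 2, the array with the high thymocyte markers. The increase was 1.58 ± 0.25 (SE, n = 3 arrays per group) in CTRL, a 3.0-fold rise with an adjusted p of 0.000174 in limma. It was 1.60 ± 0.25 in Ifnar1-KO (adjusted p = 0.000186) and 1.79 ± 0.25 in GF (adjusted p = 6.57e-05). Without both Ifnar1-KO replicate 2 arrays the Ifnar1-KO rise was 1.80. In order of level the groups ran CTRL, Ifnar1-KO and GF within each stage, but neighbours within a stage overlapped.

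*Cd207* encodes langerin, the lectin that forms Birbeck granules in Langerhans cells and binds mannose-type sugars. It had the largest change of the members in each background. In CTRL cells it read 9.95, 9.56 and 9.92 on CCR7- arrays and 5.74, 5.35 and 5.51 on CCR7+ arrays. Ifnar1-KO cells read 9.96, 9.70 and 10.11 against 6.84, 5.62 and 8.20, and GF cells 9.38, 8.79 and 9.03 against 5.29, 7.46 and 5.66. All CCR7+ arrays were below all CCR7- arrays, as for 8.28% of all genes, but the matured groups were not equally tight. The SD over 3 arrays was 0.20 in CTRL CCR7+, 1.29 in Ifnar1-KO CCR7+ and 1.16 in GF CCR7+ cells. *Cd207* fell by 4.28 ± 0.55 in CTRL, 19.4-fold, with an adjusted p of 3.06e-05. Among all falling genes in CTRL its change ranked 30. The log2 change was -3.03 ± 0.55 in Ifnar1-KO (adjusted p = 0.000805) and -2.93 ± 0.55 in GF (adjusted p = 0.00102).

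At its upper end the spread of *Cd207* among matured cells went with that of *Xcr1*, while *Kit* followed it only in part. On the CCR7+ arrays *Xcr1* read 7.37, 4.89 and 8.36 in Ifnar1-KO, 6.44, 7.97 and 6.60 in GF, and 6.42, 6.48 and 6.30 in CTRL. The 3 matured arrays on which *Cd207* was highest, Ifnar1-KO replicates 3 and 1 and GF replicate 2, were those on which *Xcr1* was highest. *Kit*, which encodes CD117, was also highest on Ifnar1-KO replicate 3, at 7.04, but in GF it was highest on replicate 3, at 6.55. The part of these markers in the *Cd207* values was not tested. Single arrays moved the size of the fall: it was -3.69 in Ifnar1-KO without CCR7+ replicate 3, -2.40 without CCR7+ replicate 2, -2.51 without both replicate 2 arrays, and in GF -3.59 without CCR7+ replicate 2 and -4.10 without the replicate 2 and 3 arrays. The adjusted p stayed under 0.05 in every alternative tried, with a highest value of 0.0213.

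**Figure D2:**
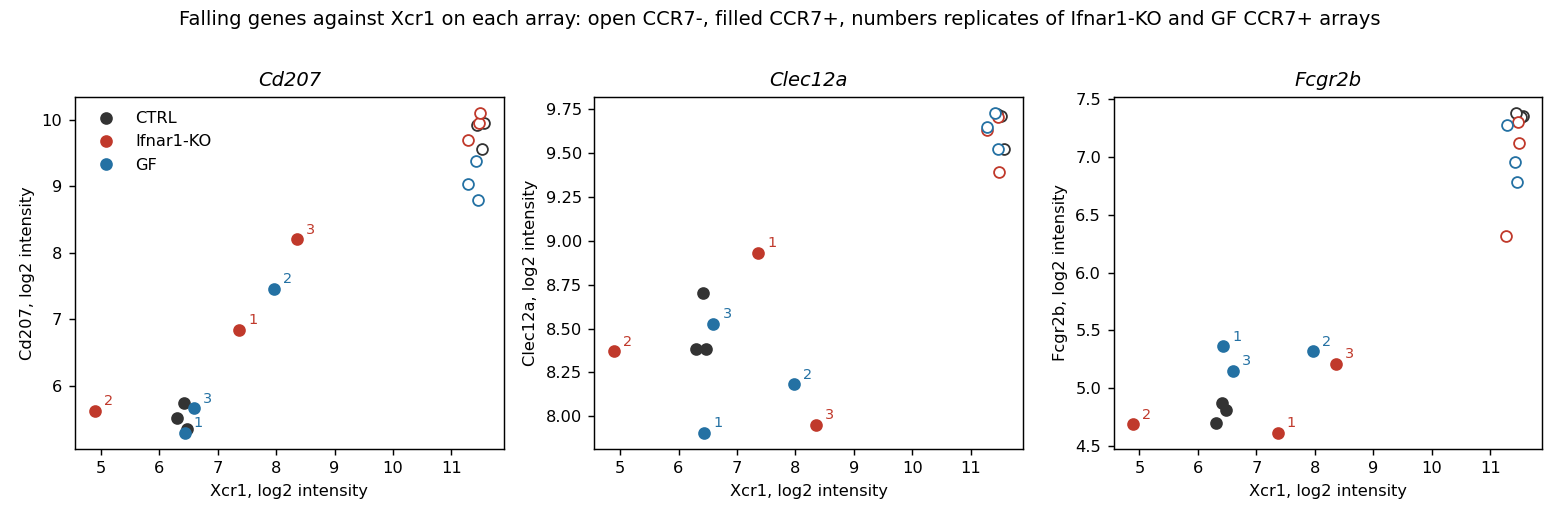
Log2 intensity of the 3 falling genes (Cd207, Clec12a, Fcgr2b) against that of Xcr1, 1 point per array; open points are CCR7- and filled points CCR7+ arrays, coloured by background, with replicate numbers at the Ifnar1-KO and GF CCR7+ points. Ifnar1-KO replicate 3 (8.20) and GF replicate 2 (7.46) have the highest Cd207 of the matured arrays and the highest Xcr1 (8.36 and 7.97); the matured arrays of Clec12a and Fcgr2b are not ordered this way.

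*Clec12a* encodes an ITIM-bearing lectin (MICL) that recognises products of dying cells such as uric acid crystals. Its CTRL values were 9.52, 9.71 and 9.72 before and 8.70, 8.39 and 8.39 after maturation. Ifnar1-KO values were 9.70, 9.63 and 9.39 against 8.93, 8.37 and 7.95. GF values were 9.73, 9.52 and 9.65 against 7.91, 8.18 and 8.53. All matured arrays were below all immature ones, as for 8.28% of all genes, yet the gene stayed well above the olfactory range after maturation. The log2 change was -1.16 ± 0.20 in CTRL (2.23-fold, adjusted p = 0.000496), -1.16 ± 0.20 in Ifnar1-KO (adjusted p = 0.000605) and -1.43 ± 0.20 in GF (adjusted p = 8.82e-05). Within each stage the arrays of the 3 backgrounds overlapped.

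*Fcgr2b* encodes FcγRIIB, the inhibitory Fc receptor for IgG. Its CTRL values were 7.35, 7.34 and 7.38 in immature and 4.87, 4.81 and 4.69 in matured cells. Ifnar1-KO values were 7.30, 6.32 and 7.12 against 4.61, 4.69 and 5.21. GF values were 6.96, 6.79 and 7.27 against 5.36, 5.32 and 5.15. The 3 immature CTRL arrays lay above all other immature arrays, a pattern not counted over all genes. Arrays apart from CTRL in CCR7- cells were found for 15.4% of all genes in Ifnar1-KO and 14.8% in GF. Neither immature *Fcgr2b* difference from CTRL was called (adjusted p = 0.681 and 0.766 in limma). Every matured array was below every immature one, as for 8.28% of all genes, and just above the olfactory range. The log2 change was -2.57 ± 0.21 in CTRL (5.93-fold, adjusted p = 3.81e-07), -2.08 ± 0.21 in Ifnar1-KO (adjusted p = 3.81e-06) and -1.73 ± 0.21 in GF (adjusted p = 2.19e-05). This was the smallest adjusted p of the 10 genes in each background.

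*Clec7a* encodes dectin-1, the receptor for fungal β-glucans that signals through SYK and CARD9. In CTRL cells it read 5.26, 6.17 and 5.62 before and 6.11, 6.40 and 6.03 after maturation, so the stages overlapped. Ifnar1-KO cells read 5.44, 4.68 and 4.94 against 6.29, 6.23 and 6.11. GF cells read 5.44, 5.37 and 5.08 against 5.76, 6.34 and 7.45. In these 2 backgrounds the matured arrays were the higher ones. The log2 change was 0.50 ± 0.33 in CTRL (95% interval -0.21 to 1.21, adjusted p = 0.295), 1.19 ± 0.33 in Ifnar1-KO (adjusted p = 0.0182) and 1.22 ± 0.33 in GF (adjusted p = 0.0152). The calls were lost when single arrays were left out. In Ifnar1-KO the adjusted p was 0.0732 without CCR7- replicate 2, 0.0571 without CCR7- replicate 3, 0.0577 without CCR7+ replicate 1 and 0.132 without both replicate 2 arrays. In GF it was 0.0598 without CCR7- replicate 3, and without CCR7+ replicate 3 the change was 0.75 with an adjusted p of 0.0591. Without the GF replicate 2 and 3 arrays the change was 0.32 (adjusted p = 0.739), and with only the GF groups fitted the adjusted p was 0.111.

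*Fcer1g*, the γ chain that activating Fc receptors and several lectins need, had no called change. Its CTRL values were 8.08, 8.57 and 8.30 in immature and 8.17, 8.46 and 8.06 in matured cells. Ifnar1-KO values were 8.02, 7.69 and 8.06 against 8.67, 7.85 and 8.35, and GF values were 8.40, 8.41 and 8.88 against 8.52, 8.98 and 8.95. The stages overlapped in every background. The log2 change was -0.09 in CTRL (95% interval -0.54 to 0.36, adjusted p = 0.795), 0.36 in Ifnar1-KO (-0.09 to 0.81, adjusted p = 0.301) and 0.26 in GF (-0.19 to 0.71, adjusted p = 0.474).

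The activating Fc receptors that use this chain, and *Clec10a*, were low throughout. Group means were 4.20 to 4.38 for *Fcgr1* (the high-affinity receptor FcγRI), 3.96 to 4.18 for *Fcgr3* (FcγRIII), 3.78 to 4.17 for *Fcgr4* (FcγRIV) and 3.48 to 3.73 for *Clec10a* (MGL1, which binds galactose-type sugars). All group means of these genes lay in the olfactory range. *Fcgr4* nevertheless passed the test in 2 backgrounds, with a change of -0.35 ± 0.12 in CTRL (adjusted p = 0.0364) and -0.38 ± 0.12 in GF (adjusted p = 0.0265). In Ifnar1-KO it was -0.18 ± 0.12 (adjusted p = 0.368). Both calls depended on single arrays: in CTRL they were lost without any array except CCR7- replicate 3 (adjusted p 0.0683 to 0.109), and in GF without CCR7- replicate 1 or 3 or CCR7+ replicate 2 or 3 (0.0541 to 0.123). The other changes of these 4 genes were between -0.22 and 0.08 and were not called.

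**Figure D3:**
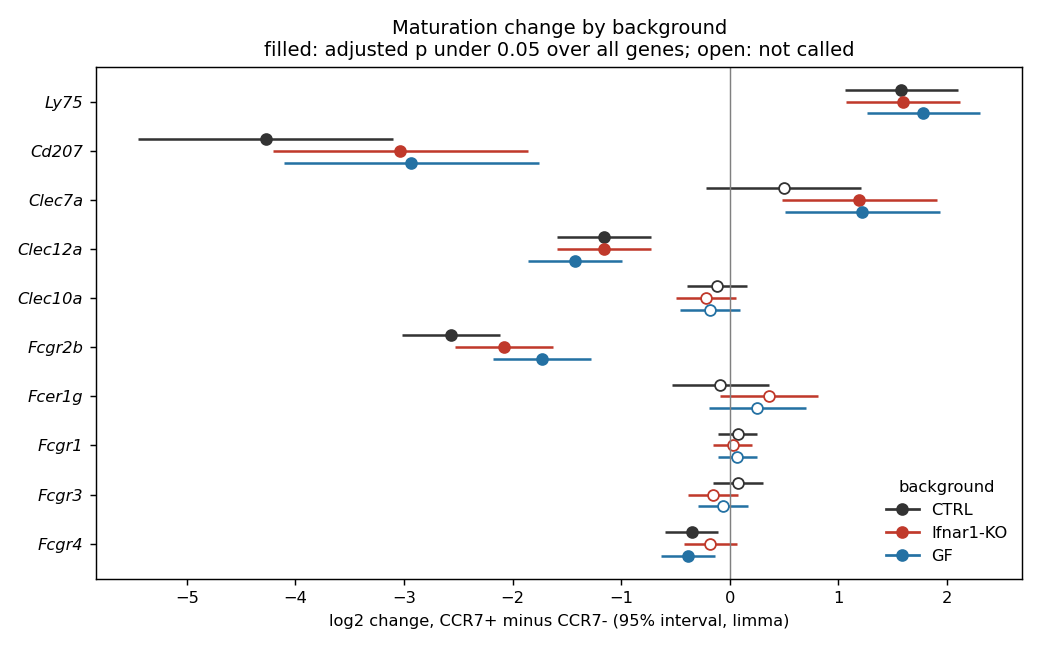
Log2 change from CCR7- to CCR7+ cells for the 10 genes in CTRL, Ifnar1-KO and GF, with 95% intervals from limma; filled points have an adjusted p under 0.05 over all genes and open points do not. The 3 intervals of each of Ly75, Cd207, Clec12a and Fcgr2b lie on 1 side of 0, with changes from 1.79 (Ly75 in GF) to -4.28 (Cd207 in CTRL).

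Low activating Fc receptor values were set beside marker lists of XCR1+ dendritic cells and of other cell types, only some of which carry these receptors. The marker lists were chosen with earlier results of these data known, so their counts are descriptions. For the counts below, all genes gave 12.6%, 9.42% and 9.53% called higher in CTRL, Ifnar1-KO and GF. Called lower were 13.6%, 10.8% and 11.8% of all genes. An unadjusted limma p under 0.05 was reached by 7501, 5724 and 6145 of the 19938 genes. Of 15 macrophage and monocyte markers, 7 were in the olfactory range in immature and 9 in matured CTRL cells, and their mean level was 5.35 to 5.45 and 4.87 to 4.90. The defining markers *Adgre1* and *Mertk* had group means of 3.44 to 3.65 and 3.45 to 3.59, all in that range. Other markers of the list were above it in immature CTRL cells, among them *Cd68* (10.53), *Lyz2* (9.25), *Vcam1* (7.63), *Ccr2* (6.97), *Csf1r* (5.60) and *C1qc* (4.95). In CTRL, 4 of the 15 fell, *Cd68* (-3.60), *Ccr2* (-3.06), *Lyz2* (-2.49) and *Csf1r* (-1.0), and *Vcam1* rose by 1.94. Of 8 markers of SIRPα+ dendritic cells, another myeloid type with Fc receptors, 3, 3 and 2 rose in CTRL, Ifnar1-KO and GF and 0 fell. Their mean level in CTRL was 4.32 to 4.52 in immature and 5.37 to 5.38 in matured cells. The risers in CTRL were *Tmem176a* (4.62), *Irf4* (2.39) and *Sirpa* (0.89). *Sirpa* encodes CD172a and *Itgam* encodes CD11b, both used to exclude cells in the sort. *Itgam* had group means of 3.79 to 3.94, in the olfactory range. Of 8 natural killer cell markers, *Klrd1* fell in each background (-2.17 in CTRL) and *Ncr1* rose in GF by 0.30, and 6 and 7 of the 8 were in the olfactory range in immature and matured CTRL cells. Of 8 neutrophil markers, 8 and 6 were in that range, and 1, 1 and 0 rose in CTRL, Ifnar1-KO and GF. Of 6 thymic epithelium markers, 1 rose and 1 fell in CTRL, 0 rose and 1 fell in Ifnar1-KO, and limma called 0 in GF. Their median change in CTRL was 0.46. In CTRL, Ifnar1-KO and GF 5, 2 and 1 of them had an unadjusted p under 0.05. Of 9 B cell markers, 8 were in the olfactory range in both stages of CTRL and 0 were called in maturation, with 2, 2 and 1 at an unadjusted p under 0.05 in CTRL, Ifnar1-KO and GF. Of 5 mast cell and basophil markers, 0 were called, with 0, 0 and 1 at an unadjusted p under 0.05. Of 14 thymocyte markers, 2 rose in CTRL and 3 in each of Ifnar1-KO and GF, with median changes of 0.89, 1.45 and 0.99. The risers were 14.3%, 21.4% and 21.4% of the list, which in CTRL was close to the share of all genes. All 14 changed upward, however, with lowest changes of 0.12, 0.13 and 0.13 in CTRL, Ifnar1-KO and GF. An unadjusted p under 0.05 was reached by 6, 9 and 4 of them. The median change of all genes was 0.07, 0.00 and 0.03. The part of these marker lists in the falls and in the rise of *Ly75* was not tested. Of 13 markers of XCR1+ dendritic cells, 8 fell in each background, and 2, 1 and 2 rose in CTRL, Ifnar1-KO and GF, *Batf3* in all 3 (0.95 in CTRL) and *Id2* in CTRL and GF. Calls either way were 76.9%, 69.2% and 76.9% of that list, beside 26.2%, 20.2% and 21.3% of all genes. The list had a mean level of 10.23 to 10.28 in immature and 7.69 to 7.89 in matured CTRL cells.

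The second question was whether the maturation of these genes differed without type I interferon signalling or without microbiota. The difference of the maturation change from that in CTRL was called for 0 of the 10 members in either background, beside 0% of all genes in both (limma). At an unadjusted p under 0.05 there were 0 members for Ifnar1-KO and 1 for GF, beside 901 and 660 genes. The largest differences were those of *Cd207*, 1.24 ± 0.78 for Ifnar1-KO (95% interval -0.42 to 2.91) and 1.34 ± 0.78 for GF (-0.32 to 3.01), both in the direction of a smaller fall. *Fcgr2b* was the 1 member at an unadjusted p under 0.05, with a smaller fall in GF by 0.84 ± 0.30 (0.20 to 1.48, adjusted p = 0.999). *Clec7a* differed by 0.69 ± 0.47 in Ifnar1-KO and 0.72 ± 0.47 in GF, and its call in these backgrounds but not in CTRL is therefore not shown to be a difference. For *Ly75* the differences were 0.02 (-0.72 to 0.76) and 0.20 (-0.54 to 0.94), and for *Clec12a* 0.00 (-0.61 to 0.62) and -0.27 (-0.88 to 0.35). Both differences use the same CTRL arrays.

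Within a stage, 0 of the 10 members were called in any of the 4 comparisons with CTRL (limma). All genes gave 0% for Ifnar1-KO and 0.015% for GF in CCR7- cells, and 0.015% and 0.0301% in CCR7+ cells. At an unadjusted p under 0.05 there were 0 and 1 members in CCR7- and 1 and 2 members in CCR7+ cells, for Ifnar1-KO and GF in turn. Over all 19938 genes these counts were 1401 and 1260 in CCR7- and 582 and 1168 in CCR7+ cells. Counting members whose 3 arrays lay entirely on 1 side of the 3 CTRL arrays gave 3 for Ifnar1-KO and 4 for GF in CCR7- cells, beside 15.4% and 14.8% of all genes, and 0 and 4 in CCR7+ cells, beside 6.94% and 11.5%.

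In immature Ifnar1-KO cells *Fcgr2b* (-0.45 ± 0.21) and *Fcer1g* (-0.39 ± 0.21) lay below and *Fcgr3* (0.21 ± 0.11) above all CTRL arrays, each with an adjusted p of 0.681. In matured Ifnar1-KO cells *Cd207* was 1.35 ± 0.55 higher on average (95% interval 0.18 to 2.53, adjusted p = 1), with overlapping arrays. Leaving out CCR7+ replicate 3, the array with the highest *Xcr1*, gave 0.69, and leaving out replicate 2, with the lowest, gave 1.99. The size of the *Cd207* difference therefore depended on single arrays. It stayed positive, from 0.69 to 1.99, and uncalled in all 16 alternatives. The part of *Xcr1* in it was not tested.

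In immature GF cells *Ly75* differed from CTRL by -0.57 ± 0.25 (adjusted p = 0.766), *Cd207* by -0.74 ± 0.55 (adjusted p = 0.797) and *Fcgr2b* by -0.35 ± 0.21 (adjusted p = 0.766), all with arrays below those of CTRL. *Fcgr3* was 0.22 ± 0.11 higher (adjusted p = 0.766). In matured GF cells *Fcer1g* was 0.59 ± 0.21 higher (adjusted p = 0.742), *Fcgr2b* 0.48 ± 0.21 higher (adjusted p = 0.819) and *Fcgr1* 0.11 ± 0.08 higher (adjusted p = 0.912), while *Ly75* differed by -0.37 ± 0.25 (adjusted p = 0.912). The GF arrays of *Ly75* lay below CTRL in both stages, and those of *Fcgr2b* below it before and above it after maturation. None of these differences was called. Arrays apart from CTRL were found for 14.8% of all genes in CCR7- and 11.5% in CCR7+ cells. Genes apart in both stages were not counted over all genes. All 6 GF array codes end in an r of unstated meaning, against 2 of 6 for CTRL. With that mark as a covariate the GF differences were -0.38 for *Ly75* in CCR7- cells, 0.51 for *Fcgr2b* and 0.78 for *Fcer1g* in CCR7+ cells, with adjusted p of 0.951 to 1.

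**Figure D4:**
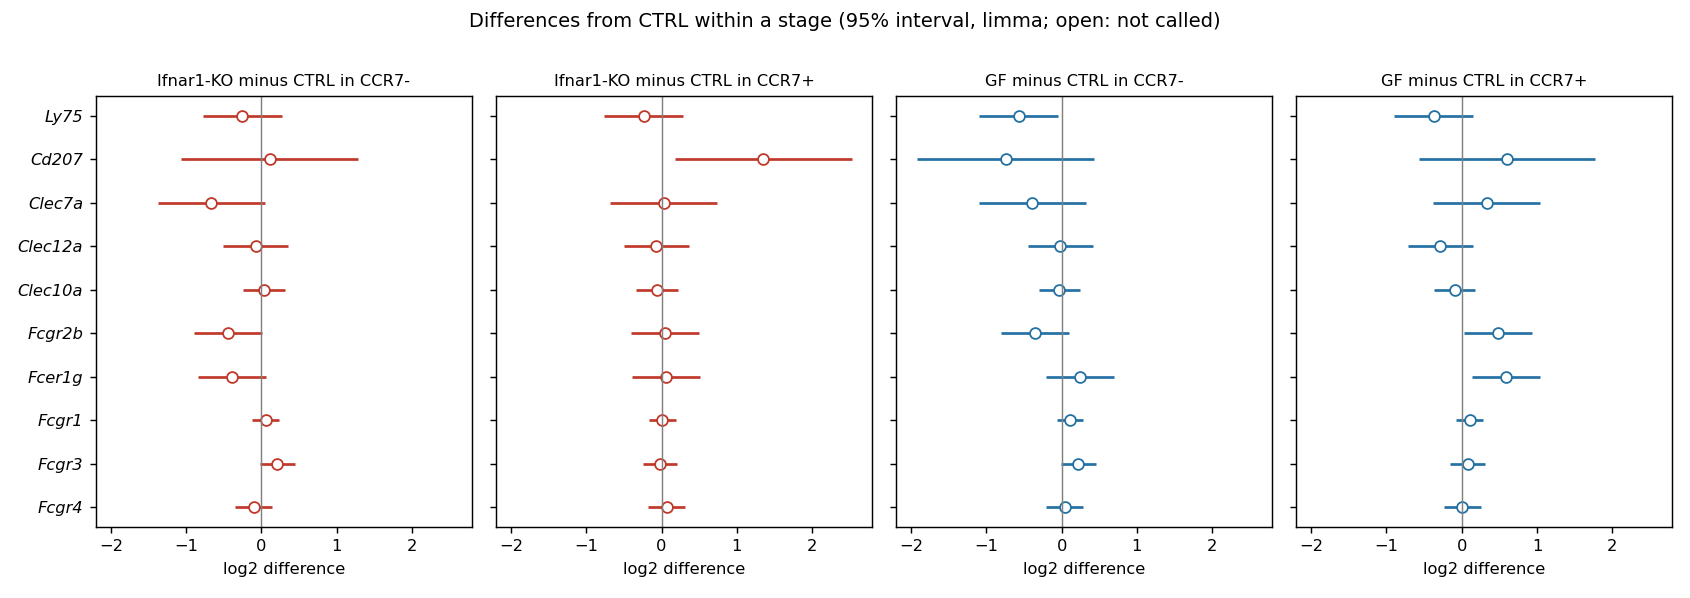
Log2 difference from CTRL for the 10 genes in Ifnar1-KO and GF cells of each stage, with 95% intervals from limma; all points are open because none had an adjusted p under 0.05. The widest intervals are those of Cd207, whose estimate is 1.35 in Ifnar1-KO CCR7+ and -0.74 in GF CCR7- cells, while Fcgr1, Fcgr3 and Fcgr4 stay within 0.22 of 0.

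Other genes of the same receptor classes and of their signalling were taken from lists of known members. These lists too were chosen with earlier results of these data known, so their counts are descriptions. Among 37 other C-type lectins, 3 rose and 6 fell in CTRL (24.3%, median change 0.03), and 2 rose and 3 fell in each of Ifnar1-KO and GF (13.5% each). These shares were not above those of all genes. *Klrb1b*, an inhibitory receptor of the NKR-P1 family, fell by 4.20 ± 0.74 in CTRL (adjusted p = 0.000563), and *Clec2d*, which encodes the ligand of that family's inhibitory receptor, rose by 1.31 ± 0.43 (adjusted p = 0.0369). *Clec2i*, another lectin of the ligand family, rose by 3.01 ± 0.27 (adjusted p = 9.23e-07). *Clec9a*, the receptor for exposed actin of dead cells, fell by 2.68 ± 0.23 (adjusted p = 4.9e-07) and *Clec4b2* by 3.90 ± 0.25 (adjusted p = 4.37e-08). These 5 genes changed the same way and were called in Ifnar1-KO and GF. *Cd72*, an ITIM-bearing lectin known from B cells, fell by 1.63 in CTRL and was not called in the others (-1.28, adjusted p = 0.0544, and -1.26, adjusted p = 0.0568). *Cd209c* passed in CTRL with 0.19 from a level in the olfactory range.

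Of 12 other Fc receptor genes, 0 rose and 2 fell in CTRL, 0 rose and 2 fell in Ifnar1-KO, and 0 rose and 3 fell in GF (16.7%, 16.7% and 25%), beside 26.2%, 20.2% and 21.3% of all genes, so the list did not stand out from all genes. *Fcrla*, an intracellular Fc receptor-like protein known from B cells, fell by 2.18 ± 0.14 in CTRL (adjusted p = 4.37e-08), with changes of -2.58 in Ifnar1-KO and -2.26 in GF, both called. *Trim21*, the cytosolic antibody receptor, fell by 0.68 ± 0.20 in CTRL (adjusted p = 0.0211), and its change was -0.73 in GF (adjusted p = 0.0165) and -0.59 in Ifnar1-KO (adjusted p = 0.0537). Of 19 other receptors that pair with the γ chain or with DAP12, or belong to the same families, 2 rose and 3 fell in CTRL (26.3%), 1 rose and 4 fell in Ifnar1-KO (26.3%), and 2 rose and 2 fell in GF (21.1%), shares close to those of all genes. *Treml4*, a receptor of CD8+ dendritic cells for dead cells, fell by 3.15 ± 0.37 (adjusted p = 1.3e-05) and was called in all 3 backgrounds, as was *Treml2* (-0.85 ± 0.14, adjusted p = 0.000243). *Siglech*, a DAP12 partner known as a marker of plasmacytoid dendritic cells, fell by 1.61 ± 0.26 in CTRL (adjusted p = 0.000273). In GF its change was -0.65 (adjusted p = 0.0983). The mean of 6 plasmacytoid markers that include it was 6.72 to 6.85 in immature and 6.06 to 6.57 in matured CTRL cells. Of these 6, 0 rose, and 1, 2 and 0 fell in CTRL, Ifnar1-KO and GF (16.7%, 33.3% and 0%). Their changes in CTRL went both ways, from -1.61 to 0.45, with a median of -0.09. *Cd300lb* rose by 0.35 and *Trem1* by 0.22 in CTRL, with both stages in the olfactory range.

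Signalling genes downstream of these receptors were followed next. Of 22 genes of the ITAM, SYK and CARD9 route, 2 rose and 13 fell in CTRL, 3 rose and 12 fell in Ifnar1-KO, and 2 rose and 12 fell in GF. These are 68.2%, 68.2% and 63.6% of the list, with median changes of -1.21, -0.91 and -1.01, beside 26.2%, 20.2% and 21.3% of all genes. The genes called lower were 13.6%, 10.8% and 11.8% of all genes. Genes named here for their role, outside the rule for named genes, are the kinase and the adaptor that give the route its name and the DAP12 chain. *Syk* gave -0.12 ± 0.31 in CTRL (adjusted p = 0.806) and *Card9* -0.04 ± 0.25 (adjusted p = 0.922). *Tyrobp*, which encodes the DAP12 chain, gave 0.07 ± 0.06 in CTRL (adjusted p = 0.413) and rose by 0.22 in Ifnar1-KO (adjusted p = 0.0173). The largest falls in CTRL were those of *Rasgrp3*, a Ras exchange factor (-3.50 ± 0.48, adjusted p = 5.52e-05), the Src-family kinase gene *Fgr* (-2.58 ± 0.17, adjusted p = 5.52e-08), the adaptor genes *Lat2* (-2.48 ± 0.26, adjusted p = 3.63e-06) and *Lcp2* (-2.04 ± 0.19, adjusted p = 1.35e-06). *Malt1*, the protease that CARD9 and BCL10 engage, rose by 1.62 ± 0.36 (adjusted p = 0.00317) and the adaptor gene *Blnk* by 0.92 ± 0.12 (adjusted p = 2.35e-05). *Blnk* rose from a level in the olfactory range (3.72) to one just above it (4.64). Its means in matured Ifnar1-KO (4.27) and GF cells (4.10) lay within that range.

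Phosphatases, some of which ITIM receptors such as FcγRIIB and MICL engage, and other brakes of this signalling went both ways. Of 13 genes, 3 rose and 5 fell in CTRL (61.5%), and 2 rose and 5 fell in each of Ifnar1-KO and GF (53.8% each), beside 26.2%, 20.2% and 21.3% of all genes, with medians of -0.01, 0.04 and -0.09. *Inpp5d*, which encodes SHIP1, the phosphatase recruited by FcγRIIB, fell by 3.03 ± 0.31 in CTRL (adjusted p = 3.26e-06), with changes of -2.53 in Ifnar1-KO and -2.86 in GF, both called. *Sla*, an adaptor that lowers receptor levels, fell by 4.47 ± 0.40 (adjusted p = 8.35e-07), the phosphatase gene *Ptpn22* by 4.13 ± 0.23 (adjusted p = 1.03e-08) and *Ptpn11*, which encodes SHP-2, by 1.11 ± 0.22 (adjusted p = 0.0016). The ubiquitin ligase gene *Cblb* rose by 2.24 ± 0.10 (adjusted p = 1.48e-09) and the adaptor gene *Dok1* by 2.57 ± 0.32 (adjusted p = 2.14e-05). *Inppl1*, which encodes SHIP2, rose by 0.36 ± 0.12 (adjusted p = 0.0432). *Ptpn6*, which encodes SHP-1 and is also named for its role, gave 0.51 ± 0.27 (adjusted p = 0.187).

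**Figure D5:**
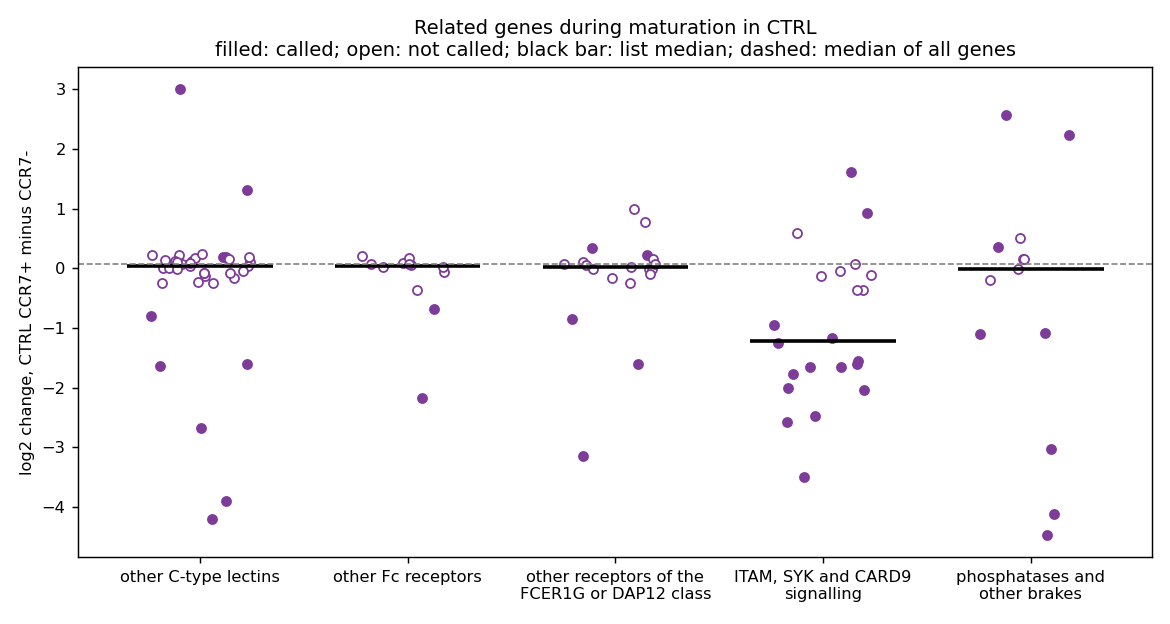
Log2 change from CCR7- to CCR7+ cells in CTRL for each gene of 5 related lists; filled points were called and open points were not, black bars are list medians, and the dashed line is the median of all genes at 0.07. Most C-type lectins and Fc receptors lie near 0, and the list of ITAM, SYK and CARD9 signalling has its median at -1.21.

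For each member the genes with the most similar profile were sought among 17180 named genes. Likeness was the root mean square difference over the 6 group means, after each gene was taken relative to its own mean, in log2 units. *Cd207* was nearest to *Ptpn22* (0.26) and *Sult1a1* (0.27), the loosest match of the members. *Ly75* was nearest to *Marf1* (0.030) and *Prr14* (0.083), *Clec12a* to *Aldh2* (0.060) and *Ebna1bp2* (0.071), *Fcgr2b* to *Dpysl2* (0.088) and *Atp2a2* (0.097), *Clec7a* to *Ofd1* (0.065) and *Rabgap1* (0.10), and *Fcer1g* to *Rab11b* (0.075) and *Mospd1* (0.079). The 4 low genes had flat profiles, whose nearest genes differed by 0.0060 to 0.028. These values describe likeness over 6 means and carry no test.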

How the data were processed

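Gene expression was measured on 18 Affymetrix mouse arrays, 3 per group. The values are log2 intensities that the authors deposited after RMA in the oligo package, per the submitters' processing notes. Not given in the sources used here: software versions, and whether the 18 arrays formed 1 set for normalisation. Total RNA was amplified with NuGEN kits, per the labels' protocols. An array has no read depth; the number of arrays limits the precision, and the median 95% half-width was 0.27 for a maturation change in CTRL and 0.38 for a difference of changes.

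Of 35556 probesets, 21789 had exactly 1 gene symbol, 1621 had several and 12146 had none. The probeset with the highest mean stood for a gene, which gave 19938 genes; no filter on level was applied. The values were not normalised again. Group and stage came from the labels. For CTRL replicate 2 the stage letters inside the array codes run opposite to those of other pairs; the stage written in the labels was used.

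All 18 arrays entered linear models in limma 3.58.1 (R 4.3.3), each group having its own mean, for 9 comparisons; the residual degrees of freedom were 12, and 14.4 after eBayes. Adjusted p-values are Benjamini-Hochberg over all genes of a comparison. The functions were tested on simulated data. The members, gene lists and marker lists were chosen with earlier results of these data known, so their counts are descriptions. Of 211 genes in the lists, 195 were measured and the others were not analysed here. From each related list up to 4 called genes per direction with the largest change in CTRL were named, and for each member the 2 genes with the most similar profile. Promoters are RefSeq sequences of GRCm38.p6, held for 9 of the 10 members.

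Pairing by replicate number was checked through the correlation of deviations across stages, with 0.1 required of every pair. It was 0.188, 0.147 and 0.100 in CTRL, 0.284, 0.321 and 0.236 in Ifnar1-KO, and 0.267, 0.00354 and 0.0296 in GF, so GF pairs did not meet it. Comparisons in the text use no pairing. Alternatives were an intensity trend, array weights, a filter at the median level, centred arrays, quantile normalisation, the mean of all probesets, a replicate block, fitting the compared groups alone, a covariate for the trailing r of the array code, leaving out each array, and leaving out the Ifnar1-KO replicate 2 arrays or the GF replicate 2 and 3 arrays, which an earlier description of these data set apart. Plots used matplotlib 3.10.9 under Python 3.11.15.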

Additional observations from a re-analysis of the deposited data

How the results depend on the processing

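The falls of Cd207, Clec12a and Fcgr2b kept their direction and their call under every alternative in all 3 backgrounds, and the rise of Ly75 did so except in GF without the GF replicate 2 and 3 arrays (adjusted p = 0.0572). That fit leaves 1 GF array per group, assumed to vary like the others, and called 3 members in GF instead of 6. Over all 458 alternative values of member maturation, 437 stayed on their side of the threshold and 21 lost their call, all of them of Clec7a, Fcgr4 or Ly75; 0 called values reversed and 8 uncalled values changed sign. The 432 values for differences of maturation and the 624 for comparisons between backgrounds stayed uncalled, with 38 and 61 sign changes. With single arrays left out the members called were 4 to 5 in CTRL, 4 to 5 in Ifnar1-KO and 4 to 6 in GF. The replicate block called the same numbers of members (5, 5 and 6) and changed no member call; of all genes called, it gave 5556, 4353 and 4555. Fcgr4 in GF also lost its call with array weights (adjusted p = 0.0533) and with only the GF groups fitted (0.16). The filter at the median level removed Clec10a, Fcgr1, Fcgr3 and Fcgr4.

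Counts over all genes moved by more than 1.5 times as follows. Maturation in GF went from 4256 to 2281, and its difference from CTRL from 0 to 4, without the GF replicate 2 and 3 arrays. Ifnar1-KO against CTRL in CCR7- cells went from 0 to 3 with a trend or centred arrays, 5 with array weights and 1 with the level filter or without the replicate 2 arrays, and to 1 to 2 without single arrays. In CCR7+ cells it went from 3 to 1 with a trend, the replicate block or the r covariate, 5 with weights and 0 with only its groups, and to 1 to 7 without single arrays. GF against CTRL in CCR7- cells went from 3 to 8 with weights and to 41 without GF CCR7- replicate 1. In CCR7+ cells it went from 6 to 1 with only its groups, 3 with the r covariate, 20 without the replicate 2 and 3 arrays, and 2 to 13 without single arrays. Among the related lists, the other Fc receptors went from 2 called to 1 in CTRL with quantile normalisation or without CCR7- replicate 1 or 3 or CCR7+ replicate 1, in Ifnar1-KO with 8 alternatives, and from 3 to 1 in GF with only its groups. Receptors of the γ chain or DAP12 class went from 5 to 3 in CTRL with the level filter, from 5 to 3 in Ifnar1-KO with only its groups or without CCR7- replicate 2 or CCR7+ replicate 1 or 3, and from 4 to 2 in GF with only its groups. Why these counts moved was not tested, beyond the fewer genes or arrays that some of these fits hold.

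Centring each array moved the 60 group means of the members by -0.02 to 0.03, and 1 of them by more than its SD; the median change of all genes in CTRL was 0.07 as deposited and 0.02 after centring or quantile normalisation.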
